A study of Mus musculus with 415 samples.

Results

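The Meis1 and Meis2 loci were examined by ATAC-seq of single cells, an assay in which the transposase Tn5 inserts adapters into open chromatin. The starting material was the mouse embryonic stem cell line R1. Hanging drops gave embryoid bodies over 48 hours, and retinoic acid, which the labels put at 0.5 mM, was then applied for 4 days. All cells carry this treatment and time point, and no untreated or other group was analysed here. Each cell was captured and transposed on a Fluidigm C1 chip, and the labels name no separate cultures or chips. The cells are therefore 1 sample, no p-value was computed from them, and exact (Clopper-Pearson) 95% intervals cover only the counting of cells. The deposited table lists 23180 regions on mm9. The members were the regions that overlap a 200 kb window over Meis1 on chromosome 11 or a 270 kb window over Meis2 on chromosome 2. This gave 18 regions, 8 at Meis1 and 10 at Meis2, numbered here along the chromosome. No annotation of mm9 was at hand, so no region is assigned to an exon, intron or promoter, and markers of pluripotent or differentiated cells were not checked beyond the loci named below.

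Meis1 and Meis2 encode homeodomain transcription factors of the TALE class, named for a loop extension in the homeodomain. MEIS proteins bind DNA together with PBX proteins and with many HOX proteins, and take part in patterning the hindbrain, the limb and other parts of the embryo. Retinoic acid is known to raise the expression of Meis genes and of the anterior Hox genes in embryonic cells, and Meis2 was found in a screen for genes induced by retinoic acid, which its synonym Stra10 records.

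In RefSeq (GRCm38.p6) both genes lie on the minus strand, so each starts at its higher-coordinate end. Meis1 spans 139224 bp and overlaps the non-coding gene Gm16141, and Meis2 spans 206274 bp and overlaps the non-coding gene G630016G05Rik. The RefSeq promoter of each gene is shown because the most open Meis1 region and several Meis2 regions lie on the high-coordinate side of their windows. Each is 300 bases long, from 250 bases before the start to 50 bases after it, written 5′ to 3′ on the minus strand with CG dinucleotides in capitals. The Meis1 promoter is at chr11:19018920-19019219 and the Meis2 promoter at chr2:116064570-116064869, both on GRCm38.p6. These positions are on another build than the regions and were not carried over to it.
Meis1 promoter: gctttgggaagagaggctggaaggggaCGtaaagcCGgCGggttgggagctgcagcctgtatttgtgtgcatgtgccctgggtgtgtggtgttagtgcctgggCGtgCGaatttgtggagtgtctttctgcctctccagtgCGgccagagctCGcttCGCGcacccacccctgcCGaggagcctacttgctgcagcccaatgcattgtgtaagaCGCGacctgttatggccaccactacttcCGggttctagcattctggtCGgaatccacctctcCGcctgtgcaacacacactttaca
Meis2 promoter: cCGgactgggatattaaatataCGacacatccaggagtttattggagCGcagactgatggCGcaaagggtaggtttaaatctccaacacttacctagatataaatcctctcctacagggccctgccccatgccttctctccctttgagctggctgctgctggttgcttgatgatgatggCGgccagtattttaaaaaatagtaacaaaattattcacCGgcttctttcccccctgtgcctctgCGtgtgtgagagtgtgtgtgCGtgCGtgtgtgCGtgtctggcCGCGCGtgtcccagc

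The Meis1 promoter holds 15 CG dinucleotides at 58.3% G+C and the Meis2 promoter 13 at 51%, against medians of 7 and 52.7% over the 32851 promoters of the table. Both therefore hold more CG than the median promoter, and 65.4% and 62.1% of all promoters hold fewer than Meis1 and Meis2. On neither strand of either promoter was there a match to AGGTCA, the half-site of retinoic acid receptors, to TGACAG, the core bound by MEIS proteins, to TGATTGA, a core bound by PBX proteins, or to CCGCCC, the core bound by SP factors. Over all promoters, 16.3%, 19.2%, 2.70% and 35.7% hold these 4 motifs on either strand. The absence says only that these letters are not in this window.

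A cell had a median of 3928 of the 23180 regions open (range 756 to 12267) and a median of 4529 fragments, where open means any signal and 1 fragment is the bases of 1 read pair. In cells with few fragments, many open sites go unsampled and read as closed. Values were therefore also set against the number expected from depth, in which a region's chance of being open depends only on how often it is open over all cells and on how many regions the cell has open.

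At Meis1, 1 region was open far more often than the other 7. Meis1 region 8 (chr11:18918609-18920827, 2218 bp), the last on the high-coordinate side, was open in 42.9% of cells (interval 38.1% to 47.8%). This placed it at the 95.7th percentile of all regions. Meis1 region 2 (chr11:18776730-18778856, 2126 bp), at the far side of the window, was open in 73 cells (17.6%, 14% to 21.6%). Although it is almost as wide, its interval lay wholly below that of region 8. Regions of the table that span at least 2 kb were open in a median of 32.3% of cells (quartiles 24.3% and 40.7%), so region 8 stood above the upper quartile of wide regions and region 2 below the lower one.

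Of the other Meis1 regions, region 4 (chr11:18785566-18786136) was open in 56 cells (13.5%, 10.4% to 17.2%), close to the median of 14.5% over all regions. The remaining 5 lay nearer to the lowest share in the table, 7.47%. Region 3 (chr11:18783369-18783800) was open in 38 cells (9.16%, 6.56% to 12.4%), and region 7 (chr11:18882302-18882678) in 36 (8.67%, 6.15% to 11.8%). The other 3 ranged from 7.95% to 8.43%. The intervals of regions 3 and 7 and of these 3 overlap, so their order is not established. The regions at Meis1 had a median share of 8.92%, and 2 of the 8 exceeded the all-region median.

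At Meis2 no region stood apart from all the others. Meis2 region 1 (chr2:115685063-115686645, 1582 bp), at the low-coordinate end of the window, was open in 29.2% of cells (24.8% to 33.8%). Region 6 (chr2:115845090-115847103, 2013 bp) was open in 97 cells (23.4%, 19.4% to 27.7%), and the intervals of these 2 overlap, so their order is not established. Next came 3 narrower regions near the high-coordinate end, on the side where the gene starts. Region 7 (chr2:115891361-115891575) was open in 65 cells (15.7%, 12.3% to 19.5%), region 10 (chr2:115901385-115902014) in 56 (13.5%, 10.4% to 17.2%) and region 8 (chr2:115892655-115893117) in 50 (12%, 9.08% to 15.6%). The other 5 ranged from 7.47% to 11.3%. The regions at Meis2 had a median share of 11.7%, and 3 of the 10 exceeded the median over all regions.

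**Figure D1:**
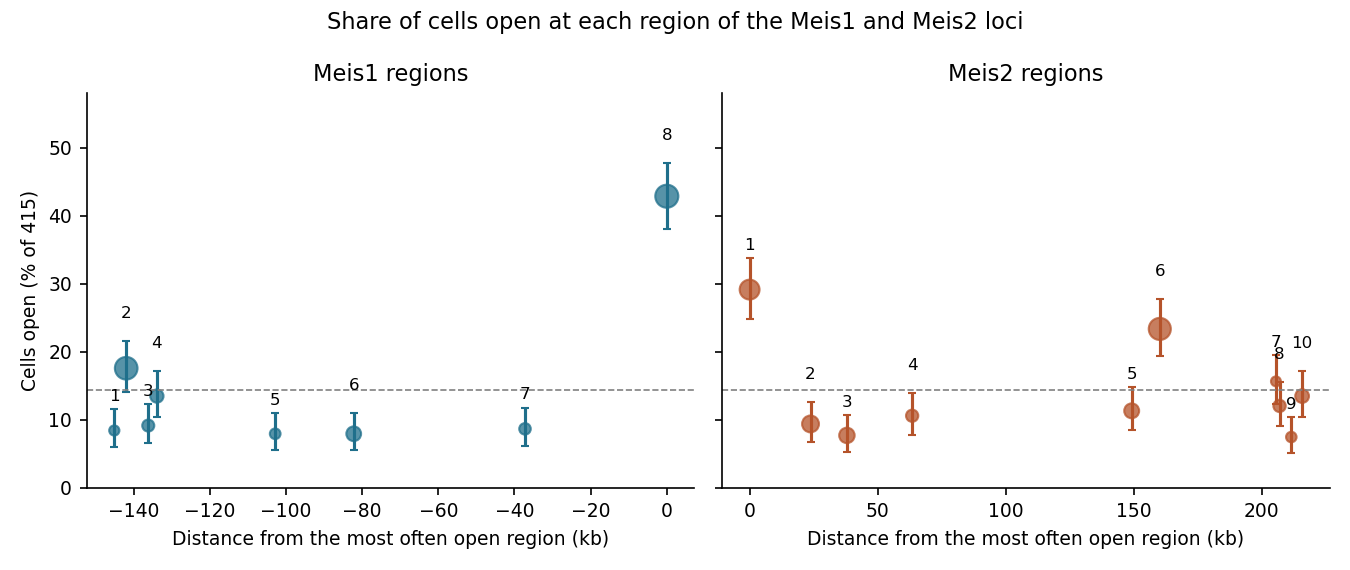
Share of cells open (vertical axis, percent) at each numbered region of Meis1 (left) and Meis2 (right), against distance in kb from the most often open region of the locus. Bars are exact 95% intervals, point area rises with region width, and the dashed line is the median of all regions (14.5%). Meis1 region 8 stands alone at 42.9%, while Meis2 regions 1 and 6 reach 29.2% and 23.4%.

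Signal within open cells was low at all 18 regions. The median open value was 0.662 to 1 fragment, which is at most 1 read pair. More than 1 fragment was present in 36% of the cells open at Meis1 region 8 and 33.1% of those open at Meis2 region 1, against 29.5% of all open values in the table. The share was lowest at Meis2 region 3, 6.25%, and Meis2 region 10, 8.93%. The highest value in any cell was 6.09 fragments, at Meis1 region 8.

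At least 1 region was open in 65.3% of cells at Meis1 (interval 60.5% to 69.9%) and in 67% at Meis2 (62.2% to 71.5%). These shares rose with depth, which is here the number of open regions in a cell. Such a rise is expected of any locus, because depth is counted from the same open calls. Cells were put in order of depth and divided into 3 sets of almost equal size. In the shallowest set, with a median of 1986 open regions, 43.2% had Meis1 and 46% Meis2 open at any region. In the middle set (median 3932.5) the shares were 65.9% and 69.6%, and in the deepest (median 6484) they were 87% and 85.5%. Meis1 region 8 was open in 25.9%, 41.3% and 61.6% of these sets. Most cells had few regions of a locus open. At Meis1, 16 cells had at least 4 of the 8 regions open, where 14.9 were expected from depth, and at Meis2, 41 cells had at least 4 of the 10 open, where 31.6 were expected.

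**Figure D2:**
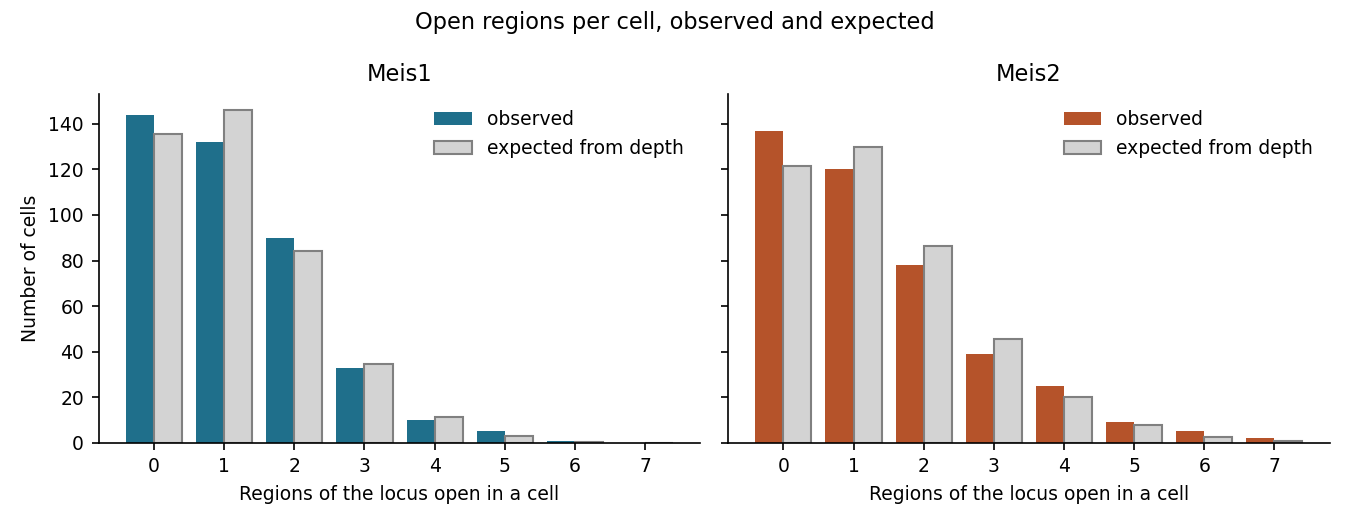
Number of cells (vertical axis) with a given number of regions of the locus open (horizontal axis), as observed (coloured) and from the depth model (grey). At both loci more cells than the model gives had no region open. At Meis2 more cells than it gives also had at least 4 regions open (41 against 31.6), and at Meis1 these counts are nearer to each other (16 against 14.9).

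Regions of 1 locus opened together in the same cells slightly more often than depth alone gives. Cells with both regions open were counted for each pair and summed over pairs, so 1 cell can count several times. Over the 28 pairs of Meis1 regions the sum was 1.06 times the 295.6 expected, and 15 pairs were above their own expectation. Over the 45 pairs at Meis2 the sum was 552, 1.14 times the 483.3 expected, and 31 pairs were above their own expectation. All pairs of regions on a chromosome within 250 kb of each other gave a ratio of 1.047 over 105123 pairs, with 60.01% of pairs above expectation. Neither locus was thus far from neighbouring regions in general. By distance, the Meis2 ratio was 1.18 at 50 to 100 kb and 1.14 at 100 to 250 kb, where all pairs gave 1.04 and 1.04, while under 10 kb it was 1.06 against 1.11 for all pairs. At Meis1 the ratio was 1.22 under 10 kb and 0.948 at 50 to 100 kb. These counts rest on few cells, with a median of 8 cells per pair at Meis1 and 10 at Meis2.

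The pair with the highest correlation of depth-corrected values was Meis2 regions 6 and 9, open together in 18 cells where 9.83 were expected (correlation 0.183 over all cells). Meis2 regions 1 and 6, the most often open at the locus, were open together in 42 cells where 36.5 were expected. At Meis1 the highest correlation was 0.123, between regions 1 and 3, which were open together in 10 cells where 4.51 were expected. All of these correlations are weak, in sparse values, and are given as descriptions. Pairs of regions share cells and depth.

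Between the loci, which lie on different chromosomes, the tendency was as small. Summed over the 80 pairs in the same way, the count of cells with both regions open was 953, 1.06 times the 896.2 expected. Of these pairs, 49 were above expectation. All 3363744 pairs of a chromosome 11 and a chromosome 2 region gave a ratio of 1.0005. The mean correlation over the 80 pairs was 0.00933. Counted by cell, 47.95% of cells (interval 43.1% to 52.9%) had both loci open at any region, where 214.9 cells were expected from depth. Meis1 alone was open in 72 cells, Meis2 alone in 79 and neither in 65, against 64.7, 78.7 and 56.7 expected. More cells than observed were also expected at each locus taken alone, 279.6 at Meis1 and 293.6 at Meis2, so the lower count of cells with both is no measure of joint opening. In the shallowest set of cells, 32 had both open, where 29.5 were expected. The middle set went the other way, with 63 cells where 71.4 were expected. In the deepest set, too, fewer cells than expected had both open. The pair with the highest correlation was Meis1 region 2 with Meis2 region 1, open together in 38 cells where 27.8 were expected (correlation 0.129). By observed over expected, Meis1 region 3 with Meis2 region 3 was highest, at 1.94 from 8 cells.

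**Figure D3:**
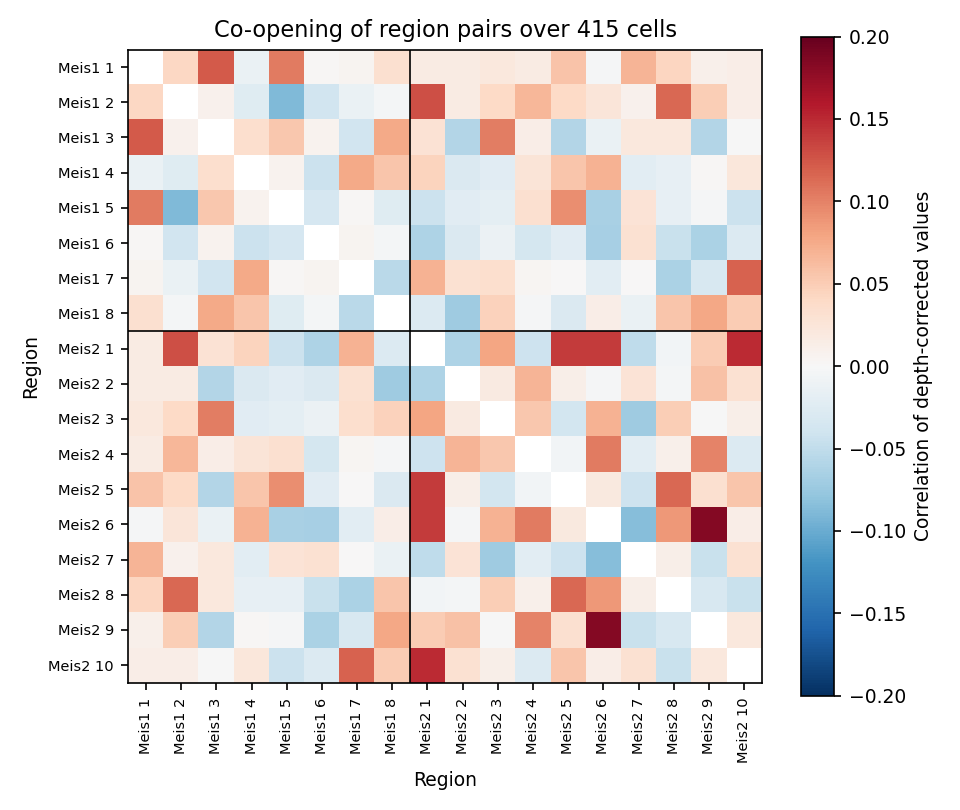
Correlation over all cells of depth-corrected open values for each pair of the 18 regions, ordered along each chromosome, with lines between the Meis1 and Meis2 blocks. Colours run from -0.2 (blue) to 0.2 (red), and values are between -0.0888 and 0.183, with no block standing out between the loci.

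The loci were next compared between groups of cells. Cells were divided into 3 clusters, numbered by size, from chromosomes that do not hold the locus being read. For Meis1 the clusters were made on the even-numbered autosomes, and for Meis2 on the odd-numbered ones. The 2 divisions gave 92.8% of the clustered cells the same cluster. The clusters are groups found in the data and not conditions, and none is named by cell type. Ratios are depth-scaled, that is, the observed over the expected number of open region-and-cell combinations in cluster 3 divided by the same in clusters 1 and 2. Their intervals count combinations, and since 1 cell can add several, they are too narrow, as are those of the Hox ratios over a whole locus.

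Depth-scaled values of Meis2 were lower in cluster 3 than in the other clusters and higher in cluster 2. Regions 2, 3, 4, 5, 8 and 9 were open in 17 to 28 cells outside cluster 2. No region of the table was open in fewer than 31 cells, so these stand in it through cluster 2. The locus value of cluster 2 is thus tied to which regions the table holds. In cluster 3, 85 combinations were open, 0.613 times the expected number (counting interval 0.490 to 0.758), while cluster 2 had 1.35 times (1.19 to 1.53) and cluster 1 0.947 times (0.831 to 1.07). At least 1 Meis2 region was open in 55.3% of cells in cluster 3, 87.9% in cluster 2 and 62.3% in cluster 1. Median depth differed too, with 3715, 4994 and 3467 open regions per cell in clusters 3, 2 and 1. Cluster 3 over the others gave a ratio of 0.547 (0.429 to 0.689). Within 4 runs of consecutive title numbers, which are parts of 1 sample, the same ratio was 0.451, 0.500, 0.784 and 0.545. In the third run the interval includes 1 (0.407 to 1.39), from 13 open combinations in 11 cells of cluster 3. Of the 10 Meis2 regions, 7 had a ratio of at most 1/1.5 and none of at least 1.5, where 33.9% of the 10319 held-out regions were lower and 16.4% higher by the same rule. The held-out regions were not matched to these in share of cells open. Regions 2 to 5 were open in 2 to 4 cells of cluster 3 and 30 to 43 others, so they stand in the table mainly through the other clusters. The median ratio was 0.489 over the Meis2 regions and 0.908 over all held-out regions.

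The lower values of cluster 3 lay in regions 1 to 6 and region 10 of Meis2. At region 10 the ratio was 0.536 (0.219 to 1.14), an interval that includes 1. At region 1 the share was 14.6% in cluster 3 (interval 8.39% to 22.9%) and 34.1% in the other cells (28.8% to 39.6%). For region 5 (chr2:115834723-115835509) the shares were 3.88% in cluster 3 (1.07% to 9.65%) and 13.8% elsewhere (10.2% to 18.2%). Regions 7, 8 and 9 were not called lower. Region 7 had shares of 17.5% in cluster 3 (10.7% to 26.2%) and 15.1% elsewhere (11.3% to 19.6%), a ratio of 1.23 (0.671 to 2.15). In region 8 the shares were 10.7% and 12.5%, a ratio of 0.908 (0.420 to 1.81).

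Cluster 2 over the other cells gave a Meis2 ratio of 1.63 (1.38 to 1.93), and 7 of the 10 regions reached 1.5, where 17% of held-out regions did. Region 5 had the highest ratio, 3.24 (1.74 to 6.20), from 27.1% of cluster 2 and 5.86% of the other cells. Region 6 had shares of 43.9% in cluster 2 (34.3% to 53.9%) and 16.3% elsewhere (12.3% to 20.9%), and region 4 (chr2:115749124-115749578) of 23.4% and 6.19%. Regions 1, 7 and 10 had ratios of 1.22, 0.973 and 1.04. No region of the table, held-out regions included, was open in fewer than 31 cells. Outside cluster 2, Meis2 regions 2, 3, 4, 5, 8 and 9 were open in 17 to 28 cells, below that floor. They stand in the table through the cells of cluster 2. Their high ratios there, and the ratio over the locus, are therefore tied to which regions the table holds. At Meis1, cluster 2 over the others gave 1.054 (0.870 to 1.27), with 4 of 8 regions at or above 1.5 and 1 at or below 1/1.5, where 14.1% and 17.8% of held-out regions were. Of these 4, regions 1, 4 and 7 were open in 19, 30 and 17 cells outside cluster 2, also below the floor.

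At Meis1 the most open region had similar shares in the 3 clusters. By the 1.5-fold rule, 6 less open regions were called lower in cluster 3, not all with intervals below 1, and 1 was called higher. Region 8 had shares of 45.9% in cluster 3 (36.4% to 55.7%), 44.9% in cluster 2 (35.7% to 54.3%) and 40% in cluster 1 (32.9% to 47.4%), and cluster 3 over the others gave 1.13 (0.798 to 1.57). By contrast, region 3 had shares of 1.80% in cluster 3 (2 cells, 0.219% to 6.36%) and 11.9% elsewhere (8.46% to 16.1%), a ratio of 0.164 (0.0192 to 0.639). Region 7 was open in 2.70% of cluster 3 and 10.9% of the others, and region 4 in 6.31% and 16.2%. Regions 1, 2 and 5 had ratios of 0.382 (0.0980 to 1.08), 0.575 (0.282 to 1.08) and 0.409 (0.104 to 1.16). These intervals include 1. By the 1.5-fold rule, 6 of the 8 Meis1 regions were lower in cluster 3, where 30.4% of the 12362 held-out regions were. The held-out regions were not matched in share of cells open. Its median was 14.5% over all regions and 8.92% over Meis1 regions. In cluster 3 the 6 were open in 2 to 12 cells, while no region of the table was open in fewer than 31 cells. They stand in the table mainly through the other clusters, so this count is tied to which regions the table holds. The median ratio was 0.414 over the Meis1 regions and 0.949 over all held-out regions.

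Meis1 region 6 (chr11:18837144-18837906, 762 bp), singled out after its values were seen, ran the other way. It was open in 18 cells of cluster 3 (16.2%, 9.90% to 24.4%), 2 of cluster 2 (1.69%, 0.206% to 5.99%) and 13 of cluster 1 (7.03%, 3.79% to 11.7%). Cluster 3 over the others gave 3.56 (1.69 to 7.58), and it was the only Meis1 region at or above 1.5, where 16.7% of held-out regions were. A count of 1 in 8 is not above that background. Its observed over expected in cluster 3, 2.16, lay within the 5th to 95th percentile of held-out regions (0.258 to 2.47). Region 6 was open in 15 cells outside cluster 3, while no region of the table was open in fewer than 31. Its place in the table thus rests on the cluster where it is high. All Meis1 regions together gave 0.767 (0.610 to 0.958) in cluster 3 over the others.

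**Figure D4:**
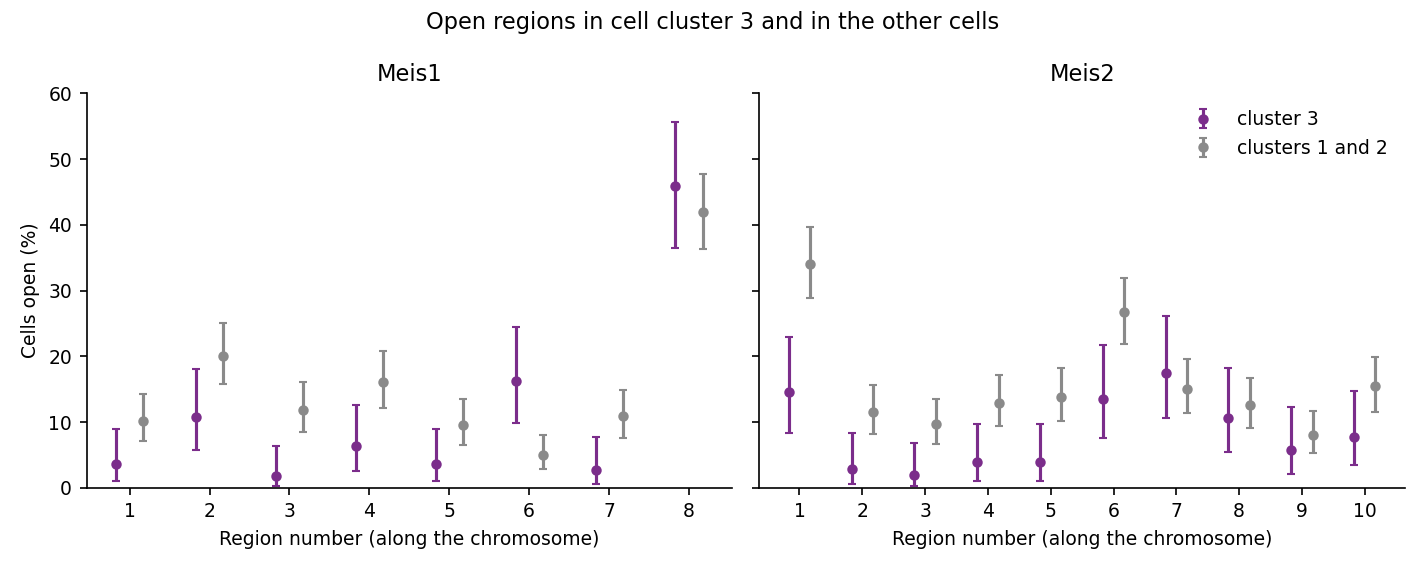
Share of cells open (vertical axis, percent) at each Meis1 region (left) and Meis2 region (right), numbered along the chromosome, in cluster 3 (purple) and in clusters 1 and 2 together (grey), with exact 95% intervals. Shares are not scaled by depth. Meis2 regions 1 to 6 are lower in cluster 3, Meis1 region 8 has 45.9% in cluster 3 and 41.9% in the others, and Meis1 region 6 is higher in cluster 3 at 16.2% against 4.95%.

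Other loci were read in the same way, each in clusters made without its own chromosome, to place these values. The windows for the 4 Hox clusters, for Pbx3, which encodes a partner of MEIS proteins, and for Gata4 and Gata6, which encode endoderm regulators, were placed by hand at the known mm9 positions of these genes and could not be checked against an annotation. In the clusters used for Meis2, where Meis2 had 0.613 times its expected number in cluster 3, Hoxd had 0.702 (0.586 to 0.834), Pbx3 0.765 (0.589 to 0.977) and Hoxa 0.895. Gata4 had 1.499 (1.03 to 2.11) and Gata6 1.24 (0.861 to 1.74), each over 2 regions. Single held-out regions had 0.234 to 2.52 in this cluster 3 (5th to 95th percentile), a range that holds all of these values. It is for single regions and not for several together. In the clusters used for Meis1, where Meis1 had 0.816, Hoxb had 0.617 (0.516 to 0.731) and Hoxc 0.844. The 2 divisions give cluster 3 partly different cells, and the differences between loci were not tested.

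Cells with open Hox clusters were then compared directly. The Hox score of a cell was the depth-scaled excess of open regions over the 54 regions of the 4 clusters, and cells were divided by it into 3 sets of almost equal size, of which the highest (Hox-high) was set against the lowest (Hox-low). Hox-high cells had a median of 10 Hox regions open and Hox-low cells 4, at similar depth, with medians of 4001 and 3892 open regions over the table. The score runs without a gap, and 24 and 33 cells lay within 0.1 of the upper and lower limit, so these are ranges and not cell types.

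Neither locus differed clearly between them. At least 1 Meis1 region was open in 68.1% of Hox-high cells (interval 59.6% to 75.8%) and 69.1% of Hox-low cells (60.7% to 76.6%), and over all 8 regions the depth-scaled ratio was 1.06 (0.851 to 1.32). For Meis2 the shares were 73.9% of Hox-high cells (65.8% to 81%) and 64% of Hox-low cells (55.5% to 72%), with a ratio of 1.197 (0.979 to 1.47) over the 10 regions. Within 4 runs of consecutive title numbers, whose meaning is not given, the Meis2 ratio was 1.68, 1.02, 1.03 and 1.0504, with the first run apart from the others, and the Meis1 ratio ran from 0.936 to 1.27. The median ratio was 1.13 over Meis1 regions, 1.33 over Meis2 regions and 1.02 over the 23126 regions outside the Hox clusters. A ratio of at least 1.5 was reached by 2 of 8 Meis1 and 2 of 10 Meis2 regions, where 14.2% of all regions reached it. A ratio of at most 1/1.5 was found at 1 Meis1 region and no Meis2 region, where 13.5% of all regions had one. At a ratio of 2, only 1 of 8 Meis1 regions and no Meis2 region was higher, against 4.46% of all regions, and no region of either locus was lower, against 6.75%.

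The highest ratio was that of Meis1 region 7, 2.19 (0.852 to 6.29), from 16 Hox-high and 7 Hox-low cells. Next came Meis2 region 2 (chr2:115709115-115710190) at 1.74 (0.795 to 4.02), from 20 and 11 cells, and Meis2 region 4 at 1.66 (0.748 to 3.85). The lowest was that of Meis1 region 6 at 0.558 (0.186 to 1.54), from 7 and 12 cells. The 2 most open regions gave 0.826 (0.568 to 1.198) for Meis1 region 8, open in 40.6% of Hox-high and 47.5% of Hox-low cells, and 1.28 (0.801 to 2.06) for Meis2 region 1, open in 32.6% and 24.5%. All 18 intervals include 1.

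**Figure D5:**
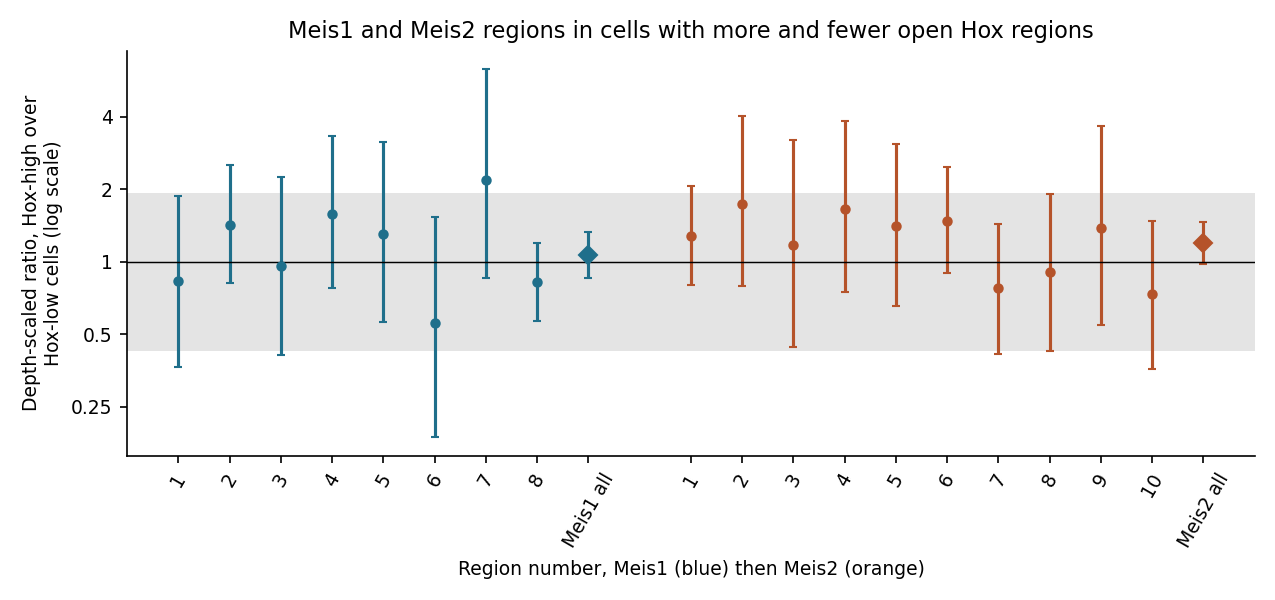
Depth-scaled ratio of open cells, Hox-high over Hox-low (vertical axis, log scale), for each Meis1 (blue) and Meis2 (orange) region and for all regions of each locus (diamonds), with 95% counting intervals. The grey band holds the 5th to 95th percentile of all regions outside the Hox clusters (0.426 to 1.92). All intervals include 1, and only Meis1 region 7, at 2.19, lies outside the band.

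Taken one Hox cluster at a time, pairs of 1 Meis and 1 Hox region were both open in 0.979 to 1.08 times the expected number of cells over the 8 combinations. The highest value was for Meis2 with Hoxd, 1.08 over 170 pairs, which share chromosome 2, as Meis1 and Hoxb share chromosome 11, and the lowest for Meis1 with Hoxc, 0.979 over 72 pairs. The correlation of locus scores over all cells was 0.0486 between Meis1 and all Hox regions and 0.0813 between Meis2 and all Hox regions. Between Hox clusters it ran from -0.00649 (Hoxc with Hoxd) to 0.174 (Hoxb with Hoxd). With Pbx3 the Meis1 score correlated at -0.0619 and the Meis2 score at 0.0232. With Gata4 and Gata6 the values were -0.0226 and 0.0411 for Meis1, and 0.0102 and -0.0370 for Meis2. All are weak, and depth is shared by every locus in a cell.

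The regions on other chromosomes whose opening was most like that of each locus had correlations up to 0.275. For Meis2, over 21286 regions, these were chr12:104552009-104553480 (0.275, open in 26.3% of cells), chr16:73117461-73118065 (0.271, 46 cells) and chr14:75635763-75636508 (0.260, 52 cells). For Meis1, over 21404 regions, they were chr8:12268068-12268512 (0.249, 34 cells), chr8:92768113-92769160 (0.243, 48 cells) and chr3:32407708-32408090 (0.207, 41 cells). The first of the Meis1 set was open together with any Meis1 region in 33 cells where 26.8 were expected. The 99th percentile over all compared regions was 0.166 for Meis2 and 0.125 for Meis1. These were picked as the highest of many, so their values lean high, and no gene is named for them.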

How the data were processed

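The authors deposited 1 table of signal, a whole number per region and cell; 51.1% of the values above 0 are multiples of 74 and 37.6% equal 148, the pattern of aligned bases summed over paired reads of 74 bases. That reading rests on the values. Per the submitters' processing notes, MACS2 and mm9 were used, without a stated role. How reads were aligned, duplicates handled and regions chosen was not given in the sources used here. The labels' protocols give 13 further PCR cycles.

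A region was open at a value above 0, and 148 bases were taken as 1 fragment. The expected probability of being open was 1 − exp(−region rate × cell rate), fitted to both margins. The code was checked on data simulated from the same model, which cannot show whether the model suits these cells. At the Meis, Hox, Pbx3 and Gata loci alike, fewer cells had any region open than the model gives. Residuals divided by their expected SD gave correlations and locus scores. Clusters came from term-frequency weighting, singular components 2 to 10 and k-means with 3 clusters and 50 starts, on 414 cells with at least 1000 fragments. The 415 cells gave sets of 139, 138 and 138 by depth, and 138 Hox-high, 138 intermediate and 139 Hox-low cells. Clusters 3, 2 and 1 held 103, 107 and 204 cells for Meis2 and 111, 118 and 185 for Meis1. The 1.5-fold rule has no replicate check. Doublets were not called. The members, gene lists, named regions (the 5 most open per locus, and the 3 most alike elsewhere) and alternatives were chosen with earlier results of these data known. Regions named for their cluster or Hox ratio, and the comparisons of 1 cluster with the other cells, were chosen after values were seen. Python 3.11.15, NumPy 2.4.6, SciPy 1.17.1 and scikit-learn 1.9.0 were used. Results for 1 further locus are not reported here.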

Additional observations from a re-analysis of the deposited data

How the results depend on the processing

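Depth limits every share given here. At least 1 region was open in 46.7% of cells at Meis1 and 47.5% at Meis2 when a whole read pair was required, in 83.2% and 80.3% of cells in the deeper part, from the median upward, and in 33.2% and 39.8% after thinning to 1500 open regions, which left out 33 cells. With a whole read pair, Meis2 in cluster 3 had 0.439 times its expected number, and cluster 3 over the others was 0.374. Within the 4 sets of consecutive title numbers that ratio ran from 0.451 to 0.784 (the highest in set 3) at Meis2 and from 0.542 (set 4) to 0.941 at Meis1. The Hox ratio of Meis2 was 1.68 in title set 1 and at most 1.0504 in the others, while that of Meis1 ran from 0.936 to 1.27. Counts of regions past 1.5-fold in Hox-high cells were small. Over all regions, 17.1% were higher and 17.2% lower with a whole read pair, 13.6% and 14.2% in deeper cells, and 13.5% and 13.6% with depth fitted per chromosome; shares under the other settings of the Hox score were not computed. Meis1 regions called higher numbered 4 with a whole read pair and 1 in deeper cells, with depth fitted per chromosome, with Hoxa and Hoxc alone, with cells divided at the median score or at a ratio of 2. Meis1 regions called lower numbered 0 in deeper cells, with Hoxa and Hoxc alone, with that division, at a ratio of 2, without the Hox cluster of the same chromosome, and with cells ranked within title sets. Meis2 regions called higher numbered 1 in deeper cells, with Hoxa and Hoxc alone or without the cluster of the same chromosome, 0 at a ratio of 2 and 4 within title sets, and those called lower numbered 2 with a whole read pair. The cause was not tested. Of the recomputed values over a locus, 29 moved and 96 stayed within the counting interval, or for counts within 1.5 times, of the reported value. The share of cells open at single regions moved at 18 of 18 regions with a whole read pair, 17 in deeper cells and 18 after thinning. Ranking within title sets, the values per set and the Hox score without the cluster of the same chromosome were chosen after seeing the data. No paired analysis was possible because all cells form 1 group.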

Other observations

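Each cell's title ends in a running number that the labels leave unexplained. In 4 runs of consecutive numbers, of near equal size, shares moved at 3 regions picked after their values were seen. Meis2 region 10 was open in 21.2%, 13.5%, 10.6% and 8.74% of cells in runs 1, 2, 3 and 4. Meis2 region 5 was open in 6.73%, 8.65%, 12.5% and 17.5%, and Meis1 region 6 in 0.962%, 13.5%, 8.65% and 8.74%. Median depth was 3679, 3869, 4189.5 and 3785 open regions. The open cells of Meis1 region 6 numbered 1 in cluster 3 and 0 elsewhere in run 1, 8 and 6 in run 2, 5 and 4 in run 3, and 4 and 5 in run 4. Cluster 3 held 39, 40, 16 and 16 cells of these runs, against 65, 63, 88 and 87 in the other clusters. Whether the runs mark chips, cultures or days was not tested.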
